A study of Mus musculus with 2 samples.

Results

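Imprinted genes are transcribed mainly from the copy inherited from 1 parent, and 45 well-known imprinted mouse genes of 18 chromosomal clusters were followed in *Dullard* mutant embryos at gastrulation. They were chosen by name, as genes whose imprinting is established, at a time when earlier results of these data were known. Of the 45, 21 are expressed from the maternal copy, 22 from the paternal copy and 2 (*Gnas* and *Inpp5f*) from a copy that depends on the transcript. A probe was named for 43 of them (70 probes) among 20277 named genes on the array, and 38 were measured in both embryos, among 14767 genes.

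The arrays hold RNA of 1 sample labelled as a *Dullard*+/- and 1 labelled as a *Dullard*-/- whole embryo at E7.5 of strain C57BL/6, each hybridised to 1 array of a 1-colour Agilent whole mouse genome design on the same slide. *Dullard* (*Ctdnep1*) encodes a phosphatase, and the *Dullard*+/- embryo, which carries 1 mutant copy, is the reference, since no wild-type array is among these samples. The study made a null allele and a *LacZ* allele, each in ES cells, and called embryos of either kind *Dullard*-/-, and neither the labels nor the methods say which of them the *Dullard*-/- embryo carried. With 1 sample per genotype there was no replicate check and no test was made. The differences below describe these samples, and the number of arrays limits the precision.

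Genomic imprinting rests on DNA methylation that is laid down in the egg or the sperm at imprinting control regions and kept through the reprogramming after fertilisation. Many imprinted genes lie in clusters where 1 control region silences several neighbours on a single parental chromosome, often through a long non-coding RNA. The products are known for the control of fetal and placental growth, with several paternally expressed genes promoting growth and several maternally expressed genes restraining it. An array probe reads RNA of both copies together, so the values give the summed level of a transcript and not which copy was read, and imprinting itself was not measured.

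The promoter windows of *Usp29*, *Mest* and *Copg2* are shown because these genes carried the differences described below. Each window runs from 250 bases before to 50 bases after a RefSeq start in GRCm38.p6 and is printed 5′ to 3′ on the strand of the gene. For *Usp29* (chr7:6730333-6730632, plus strand) the capitals mark GGGGCCCC, a sequence that the zinc finger protein encoded by *Plagl1*, itself imprinted, is known to bind. For *Mest* (chr6:30737800-30738099, plus strand) and *Copg2* (chr6:30896745-30897044, minus strand) the capitals mark CG dinucleotides, the sites of DNA methylation.
Usp29: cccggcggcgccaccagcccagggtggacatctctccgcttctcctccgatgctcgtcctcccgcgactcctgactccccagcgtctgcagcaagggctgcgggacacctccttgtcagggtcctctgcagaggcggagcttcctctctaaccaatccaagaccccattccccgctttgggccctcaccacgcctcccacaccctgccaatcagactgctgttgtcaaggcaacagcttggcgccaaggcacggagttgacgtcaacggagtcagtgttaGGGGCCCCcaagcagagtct
Mest: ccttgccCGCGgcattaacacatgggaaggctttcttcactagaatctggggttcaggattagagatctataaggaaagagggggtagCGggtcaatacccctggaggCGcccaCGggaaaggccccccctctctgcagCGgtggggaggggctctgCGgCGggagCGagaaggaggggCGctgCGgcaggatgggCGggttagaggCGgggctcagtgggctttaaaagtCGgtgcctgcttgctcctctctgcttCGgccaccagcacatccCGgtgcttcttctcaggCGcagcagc
Copg2: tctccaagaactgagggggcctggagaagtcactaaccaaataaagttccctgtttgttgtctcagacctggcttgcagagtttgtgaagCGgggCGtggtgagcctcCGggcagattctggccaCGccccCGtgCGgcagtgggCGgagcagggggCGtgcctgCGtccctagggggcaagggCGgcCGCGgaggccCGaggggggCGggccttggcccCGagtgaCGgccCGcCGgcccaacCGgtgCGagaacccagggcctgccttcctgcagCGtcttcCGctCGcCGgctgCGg

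The *Usp29* window lies head to head with that of *Peg3*. The windows share 263 bases on opposite strands and the starts lie 164 bases apart, so the same stretch precedes both genes. GGGGCCCC reads the same on both strands and occurred 1 time in the *Usp29* window, with its first base 30 bases past the *Usp29* start. Of the 37 imprinted genes whose windows were counted, 4 held it in any of their windows (10.8%). These were *Peg3*, *Usp29*, *Ppp1r9a* and *Rasgrf1*, of which *Peg3* and *Usp29* share 1 copy. The chromosome of *Impact* was left out of the counts over imprinted genes but not of those over all genes. Among all 27025 genes with a window 338 held GGGGCCCC (1.25%). A match describes these letters and is not evidence of binding. The windows of *Mest* and *Copg2* held 17 and 25 CG dinucleotides. Over the 37 imprinted genes the median was 17, with a range of 0 to 48, and over all genes it was 8, taking the window with the most for each gene.

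Before the genes are compared, the identity of the samples needs stating. *Xist*, the RNA that coats the inactive X chromosome of female cells, gave 634 and 344 on its pair of probes in the sample labelled *Dullard*+/-, and 4.55 and 1.67, not well above background, in that labelled *Dullard*-/-. The Y-linked genes *Ddx3y* (89.3 and 132), *Eif2s3y* (99.8 and 214), *Kdm5d* (16.4 and 10.3) and *Uty* (29.5 and 52.0 on the brighter probe) were well above background in both. The *Dullard*+/- sample thus held *Xist* and Y-linked transcripts together, so it may not be the RNA of a single embryo alone, and "the *Dullard*+/- embryo" below means the sample with that label. What else it may hold was not tested, nor was its part in any difference below. *Dullard* itself gave a signal of 672 in the heterozygous and 144 in the homozygous sample, or a log2 fold change of -2.11. Both signals were well above background, while the study detected none of its mRNA in *Dullard*-/- embryos of this stage by Q-PCR or in situ hybridization. The null allele of the study lacks every exon and the *LacZ* allele only some of them. The place of the probe was not determined, and the source of the remaining signal was not tested.

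Marker lists described the tissues in the samples. Of the epiblast list 7 of 7 genes were measured in both embryos, with a median log2 fold change of 0.09. Of these, 2 were past 1.5-fold higher, *Fgf5* (0.89) and *Tdgf1* (0.87), and 0 lower, beside 3.92% and 3.37% of all genes. Of the visceral endoderm list 12 of 12 were measured (median 0.01), of the trophoblast and extraembryonic ectoderm list 12 of 14 (-0.04), and of the neural list 7 of 8 (0.02). The nascent mesoderm list (10 of 10, median 0.59) went both ways. Past 1.5-fold, 5 of its genes were higher, among them *Mixl1* (1.39) and *Fgf8* (0.94), and 2 were lower, *Msgn1* (-1.88) and *T* (-1.19). The shares over all genes were 3.92% higher and 3.37% lower. The primitive blood and endothelium list (8 of 10, median -0.12) also went both ways, with *Hbb-bh1* at -2.08 and *Gata1* at -1.30 but *Cdh5* at 1.10, *Etv2* at 0.86 and *Kdr* at 0.64. The list named for definitive red cells had a median of -0.78 over 4 of 6. Its summed signal was 643 in the *Dullard*+/- and 264 in the *Dullard*-/- embryo. Those 4 were *Hba-a1* (-0.95), *Hba-a2* (-1.38), *Alas2* (-0.61) and *Slc4a1* (0.13). Whether their RNA came from definitive or primitive red cells was not determined. The adult globin genes *Hbb-bt* (56.5 and 2.38) and *Hbb-bs* (23.1 and 1.48) were well above background in the *Dullard*+/- sample only. Of the decidua and uterus list, 4 of 8 genes were measured in both, with a median of -0.19. They were *Des* (0.25), *Mmp2* (0.15), *Acta2* (-0.54) and *Pgr* (-0.55). The summed signals of the whole list were 194 and 193. *Prl8a2*, a prolactin family gene of the decidua, and *Lum* were not well above background in either sample. Of that list, *Prl3c1*, another prolactin family gene of the decidua, was above background in the *Dullard*+/- sample only and *Hoxa11* in the *Dullard*-/- sample only. The part of tissue makeup in the values of imprinted genes was not tested.

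Signals are given in arbitrary fluorescence units after background subtraction. Fold changes compare the *Dullard*-/- with the *Dullard*+/- embryo after each array was scaled to its 75th percentile, 286 for the *Dullard*+/- and 264 for the *Dullard*-/- array, so equal signals give a log2 fold change slightly above 0. The error after ± comes from the SD between replicate spots at similar brightness. The dimmest probes, such as that of *Nap1l5*, all take 0.25 from the nearest replicated probes, which may be brighter. This error covers neither the spread between embryos nor that between probes of 1 gene, whose pooled SD was 0.29 over 3746 genes. Genes past 1.5-fold in either direction are counted, and higher or lower always refers to the *Dullard*-/- embryo.

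Most imprinted genes had similar levels in the 2 embryos, as did most of all genes. Of the 38 measured in both, 35 lay within 1.5-fold (92.1%), beside 92.7% of all genes. Among those inside by the mean over probes are *Kcnq1ot1*, *Plagl1* and *Meg3*, whose probes were at least 1.5-fold apart in their ratio. The median log2 fold change was -0.04, beside 0.01 over all genes. Higher by 1.5-fold or more were 3 genes, *Usp29*, *Copg2* and *Nap1l5*, or 7.89% of the measured members beside 3.92% of all genes. With normexp background correction, which pulls dim genes toward 0, none of the 3 was past 1.5-fold, with *Usp29* at 0.51, *Copg2* at 0.51 and *Nap1l5* at 0.08, and *Nap1l5* was also inside it without scaling (0.53) and without the filter on dim probes (-0.30). None was lower by that much, beside 3.37% of all genes. *Usp29* alone was at least 2-fold higher, beside 0.894% of all genes, and none was 2-fold lower, beside 0.765%. Dim genes differ more often in general. Among the dimmest 25% of genes, 8.32% were higher and 9.29% lower by 1.5-fold or more, and 2.3% were higher and 2.19% lower by 2-fold or more. *Usp29*, *Nap1l5*, *Kcnq1ot1* and *Mkrn3* are among these dim genes, and *Copg2* is not.

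**Figure D1:**
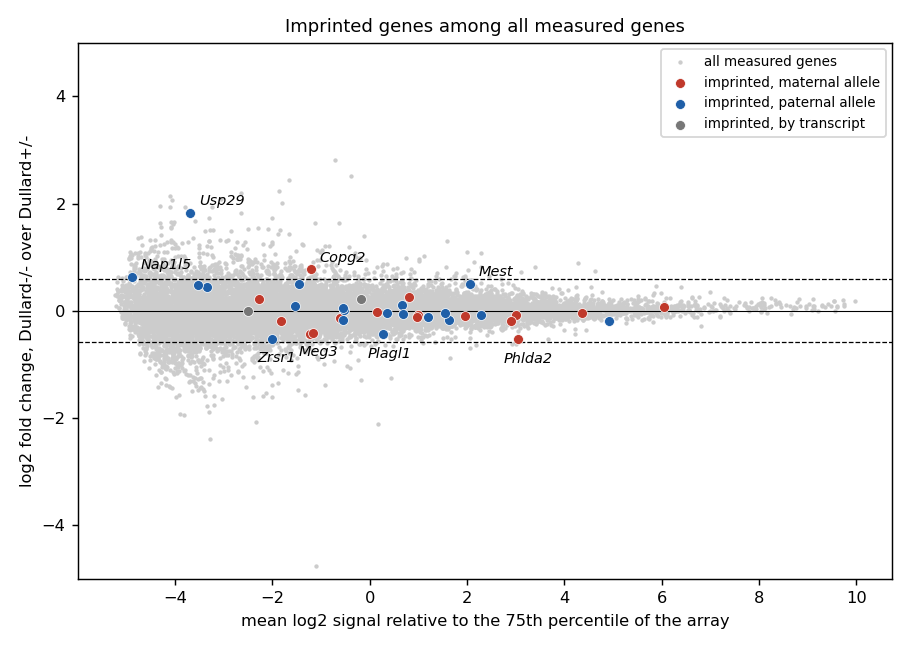
The log2 fold change between the embryos (vertical axis, homozygous over heterozygous) is plotted for all genes measured in both against their mean log2 signal relative to the 75th percentile of the array (horizontal axis), 1 sample per genotype, with imprinted genes coloured by the expressed parental copy and dashed lines at 1.5-fold. *Usp29* lies at 1.83 and *Copg2* at 0.78 above the upper line, and *Phlda2* at -0.53 just inside the lower one.

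*Usp29* and *Peg3*, which start from the shared stretch shown above, differed in their fold changes. *Usp29* (NM_021323), a paternally expressed gene for a deubiquitinating enzyme, has 1 probe, which gave 11.8 in the *Dullard*+/- and 38.8 in the *Dullard*-/- embryo. After scaling it was 3.55-fold higher, with a log2 fold change of 1.83 ± 0.22. *Peg3* (NM_008817), a paternally expressed zinc finger gene known for its effects on growth and maternal behaviour, gave 1598 and 1441 on one probe and 1275 and 1094 on the other, a mean log2 fold change of -0.07 ± 0.04. Both *Peg3* probes were thus at most 1.08-fold lower, while the *Usp29* probe was higher. That probe is 1 dim spot, near the lowest signal counted as measured in the *Dullard*+/- embryo (6.20). Its error is taken from other probes and does not cover the spread between embryos. With normexp background correction the *Usp29* value was 0.51. *Zim1* (NM_011769), a maternally expressed zinc finger gene of the same domain, was well above background in the *Dullard*+/- embryo only. Its probes gave 9.31 and 10.9 there, and 4.56 and 5.11 in the *Dullard*-/- embryo, with bounds of at least 1.18-fold and at least 1.39-fold lower. Each bound is set against the lowest signal counted as measured in the *Dullard*-/- embryo, or against the signal of the probe there if higher.

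The *Mest* domain held a pair of overlapping genes that were both higher in the *Dullard*-/- embryo. *Mest* (NM_008590), a paternally expressed gene for a hydrolase-like protein of mesodermal tissues, gave 2221 and 3236 on a probe spotted 10 times, 1688 and 2040 on the second probe, and 263 and 338 on the third. The log2 fold changes were 0.66, 0.39 and 0.48, with a mean of 0.51 ± 0.03, or 1.42-fold higher. All 3 probes were higher in the *Dullard*-/- embryo. *Copg2* (NM_017478), which encodes a subunit of the coat of Golgi vesicles and is maternally expressed in some tissues, gave 61.7 and 102 on one probe and 144 and 219 on the other. The log2 fold changes were 0.84 and 0.72, with a mean of 0.78 ± 0.06, or 1.72-fold higher. Both probes gave the same direction, and their difference was smaller than the pooled SD between probes of a gene. The RefSeq annotation has *Mest* and *Copg2* overlapping at their ends on opposite strands, and the place of the probes within the genes was not determined, so reads of the partner strand cannot be told apart. *Klf14* (NM_001135093), a maternally expressed transcription factor gene beyond *Copg2*, gave 141 and 96.7, a log2 fold change of -0.43 ± 0.09. The nascent mesoderm markers went both ways, as given above, and the part of mesoderm content in the *Mest* value was not tested.

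In the *Kcnq1ot1* domain none of the 6 measured genes was past 1.5-fold by its mean over probes, with 2 above and 4 below 0. Over all genes 3.92% were higher and 3.37% lower by as much. *Kcnq1ot1* itself is counted here by the mean of opposed probes (-0.49 and 1.37), described below. *Phlda2* (NM_009434), a maternally expressed gene that limits placental growth and is active in extraembryonic tissue, gave 2843 and 1820, which is 1.44-fold lower (log2 fold change -0.53 ± 0.05). Of the 38 measured members it had the lowest value, within its spot error of *Zrsr1* (-0.52 ± 0.11). In a whole embryo, fewer cells of a type and less RNA per cell cannot be told apart. The trophoblast list, whose gene *Ascl2* lies in this same imprinted region, had summed signals of 7719 and 7164, 5 of its 12 measured genes were above and 7 below 0, and *Tpbpa* was not well above background in either embryo. *Ascl2* gave 120 and 66.5 (-0.74), the only gene of that list past 1.5-fold lower, beside 3.37% of all genes. *Prl3d1* (1.07, with summed signals of 18.9 and 35.3) was the only one past 1.5-fold higher, beside 3.92%, and *Esrrb* was at 0.51. *Cdkn1c* (NM_009876), a maternally expressed inhibitor of the cell cycle, gave 196 and 164, a log2 fold change of -0.14 ± 0.08.

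The long non-coding RNA of that domain gave no single answer. *Kcnq1ot1* (NR_001461), the paternally expressed antisense RNA that silences its neighbours, gave 64.3 and 42.4 on one probe and 9.23 and 22.0 on the other. The log2 fold changes were -0.49 ± 0.12 and 1.37 ± 0.25, so the brighter probe was lower and the dimmer one higher in the *Dullard*-/- embryo. Their mean, 0.44, stands for neither. *Kcnq1*, the potassium channel gene within which *Kcnq1ot1* lies, was not well above background in either embryo. The other measured genes of the domain were *Slc22a18*, a transporter gene (54.5 and 59.0, 0.23 ± 0.12), *Cd81*, a tetraspanin gene (2356 and 2075, -0.07 ± 0.05), and *Tssc4* (587 and 499, -0.12 ± 0.05).

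**Figure D2:**
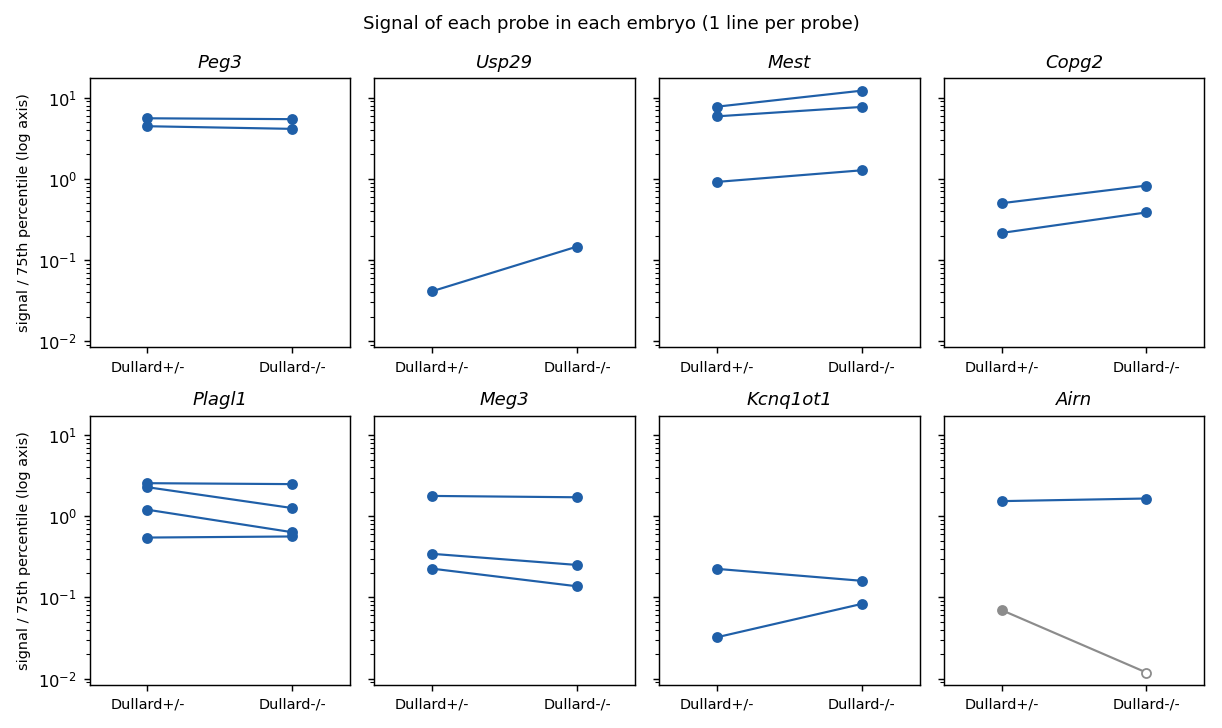
Signal of each probe divided by the 75th percentile of its array (vertical log axis) in the *Dullard*+/- and the *Dullard*-/- embryo (horizontal axis), 1 line per probe, 1 sample per genotype. Grey with an open point marks a probe not well above background in the *Dullard*-/- embryo; the probes of *Mest* and *Copg2* all slope up, and those of *Kcnq1ot1* cross in direction (-0.49 and 1.37).

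Probes of 1 gene disagreed at other loci too. Of 15 imprinted genes with more than 1 measured probe, 3 had probes at least 1.5-fold apart in their ratio (*Kcnq1ot1*, *Plagl1* and *Meg3*), or 20.0% beside 14.8% of all genes with several probes, and *Kcnq1ot1* alone had them 2-fold apart, beside 3.52%. *Plagl1* (NM_009538), a paternally expressed zinc finger gene that restrains cell division, has 4 probes that fell into 2 pairs. One pair was lower in the *Dullard*-/- embryo, at 344 and 168 (log2 fold change -0.92 ± 0.07) and at 652 and 334 (-0.85 ± 0.06). The other pair was level, at 731 and 658 (-0.04 ± 0.05) and at 156 and 149 (0.04 ± 0.08). All 4 probes are assigned to the same RefSeq accession, and the mean was -0.44, with the outermost probes 1.95-fold apart. Which part of the transcript each pair reads was not determined.

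In the *Dlk1*-*Dio3* cluster protein-coding genes are read from the paternal and non-coding RNAs from the maternal copy. Of its 4 measured genes, 3 lay below 0. None was past 1.5-fold by its mean over probes, beside 3.92% of all genes higher and 3.37% lower. *Meg3*, a maternally expressed long non-coding RNA, gave 509 and 453 on its brightest probe (log2 fold change -0.05 ± 0.06). The remaining *Meg3* probes gave 98.5 and 66.4 (-0.46 ± 0.10) and 64.6 and 36.2 (-0.72 ± 0.14). The mean was -0.41, with the brightest probe near 0 and the dimmer ones lower. *Mirg* (NR_028265), a maternally expressed host of microRNAs, gave 2292 and 1865 (-0.18 ± 0.05). *Dlk1*, the paternally expressed gene for a Notch-ligand-like protein, gave 1282 and 1037 on the brighter probe and 33.5 and 27.8 on the dimmer one, a mean of -0.17 ± 0.10. Both *Dlk1* probes gave the same direction. *Dio3*, whose enzyme inactivates thyroid hormone, gave 196 and 184 (0.02 ± 0.07), within its error. *Rtl1* (NM_184109), a retrotransposon-derived gene needed in the placenta, gave 8.45 and 4.09 and was well above background in the *Dullard*+/- embryo only, with a bound of at least 1.07-fold. *Zim1* and *Rtl1* were the imprinted genes measured in that embryo alone, 4.65% of the 43 beside 4.45% of all named genes, and 0 were measured in the *Dullard*-/- embryo alone, beside 0.75%. *Rian*, a maternally expressed RNA of this cluster, and *H19* had no named probe.

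The genes of the insulin-like growth factor system among the imprinted genes were close to level. *Igf2* (NM_010514), the paternally expressed fetal growth factor, gave 681 and 584, a log2 fold change of -0.11 ± 0.06. *Igf2r* (NM_010515), the maternally expressed receptor that clears it, gave 5938 and 5360 over 9 spots (-0.04 ± 0.01, and 0.003 with scaling to the array medians). *Grb10* (NM_010345), a maternally expressed adaptor that dampens insulin and growth factor receptors, gave 459 and 505 (0.25 ± 0.06). So the growth factor and its clearing receptor were at most 1.08-fold lower, and *Grb10* was 1.19-fold higher. *Airn*, the paternally expressed antisense RNA that silences *Igf2r*, had 1 probe at 439 and 438 (0.11 ± 0.06, and -0.01 without scaling) and another at 20.0 and 3.13. The second was well above background in the *Dullard*+/- embryo only, with a bound of at least 2.54-fold lower, so these probes do not give 1 direction. *Slc22a3*, a transporter gene beside *Igf2r* that is imprinted in the placenta, was not well above background in either embryo.

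Beyond the imprinted members, 17 of 17 genes of the insulin-like growth factor axis were measured, with a median of 0.04 and 10 above and 7 below 0. *Igfbp1*, for a secreted binding protein, was past 1.5-fold higher (52.6 and 80.0, 0.72 ± 0.11), and none was lower by as much, 1 and 0 of 17 beside 3.92% and 3.37% of all genes. *Igfbp6* was at 0.55, *Igfbp5* at -0.49 and *Igf1r*, the signalling receptor, at 0.46. The axis thus held values on both sides, from -0.49 to 0.72.

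In the *Snrpn* domain none of the 5 measured genes was past 1.5-fold, beside 3.92% of all genes higher and 3.37% lower. *Snrpn* (a splicing protein gene) had a mean of -0.05 ± 0.04 over 3 probes, the brightest of which gave 2392 and 2140. *Magel2* gave 470 and 415 (-0.07 ± 0.06). *Ndn*, which like *Magel2* encodes a MAGE family protein, gave 88.4 and 115 (0.49 ± 0.09). *Mkrn3*, for a ring finger protein, gave 26.0 and 28.0 on one probe and 16.9 and 26.4 on the other (mean 0.49 ± 0.15), with both probes higher. *Ube3a*, a ubiquitin ligase gene whose maternal expression is limited to neurons, gave 1150 and 995 (-0.10 ± 0.05).

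Among the *Nap1l5*, *Zrsr1*-*Commd1*, *H13*-*Mcts2*, *Nnat*-*Blcap* and *Inpp5f* clusters, *Nap1l5* and *Zrsr1* stood furthest from 0, in opposite directions. *Nap1l5* (NM_021432), a paternally expressed gene of the nucleosome assembly protein family, gave 7.75 and 11.2 on one probe, 1.56-fold higher (0.64 ± 0.25), near the lowest signals counted as measured (6.20 and 7.27). Its other probe gave 4.17 and 1.63, not well above background in either embryo, and without the filter on dim probes the mean was -0.30. *Zrsr1* (NM_011663), a paternally expressed gene of the U2AF splicing factor family, gave 85.2 and 55.0 (-0.52 ± 0.11), while *Commd1*, within which it lies, gave 586 and 515 (-0.07 ± 0.05). *Mcts2* gave 946 and 774 (-0.18 ± 0.05), and its host *H13*, the signal peptide peptidase gene, had a mean of -0.03 ± 0.05 over 3 probes that ranged from -0.16 to 0.20, with a further probe measured in the *Dullard*+/- embryo only. *Nnat*, a small membrane protein gene, had probes at 0.14 and -0.22 (mean -0.04), and *Blcap*, within which it lies, gave 18524 and 18003 (0.07 ± 0.04). *Inpp5f*, a phosphatase gene, gave 50.6 and 46.7 (0.00 ± 0.14).

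The remaining measured imprinted genes were at most 1.17-fold from equal levels. *Peg10*, a paternally expressed retrotransposon-derived gene required for the placenta, gave 7221 and 6083 on one probe and 11992 and 9256 on the other (mean -0.20 ± 0.03), both lower. *Sgce*, a sarcoglycan gene beside it, gave 193 and 184 (0.05 ± 0.07), and *Ppp1r9a*, for the actin-binding protein neurabin, had a mean of -0.20 ± 0.11. *Impact*, a regulator of translation, had a mean of 0.10 ± 0.12. *Gnas*, the gene for the stimulatory G protein subunit, gave 4127 and 4432 on its brightest probe, with a mean of 0.22 ± 0.06 over 3 probes. These are assigned to different RefSeq transcripts, so the mean mixes transcripts. All lay above 0, but the dimmest, at 43.2 and 41.9, did so only after scaling (0.07 ± 0.15). *Rasgrf1*, a paternally expressed exchange factor gene, was not well above background in either embryo on its pair of probes.

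**Figure D3:**
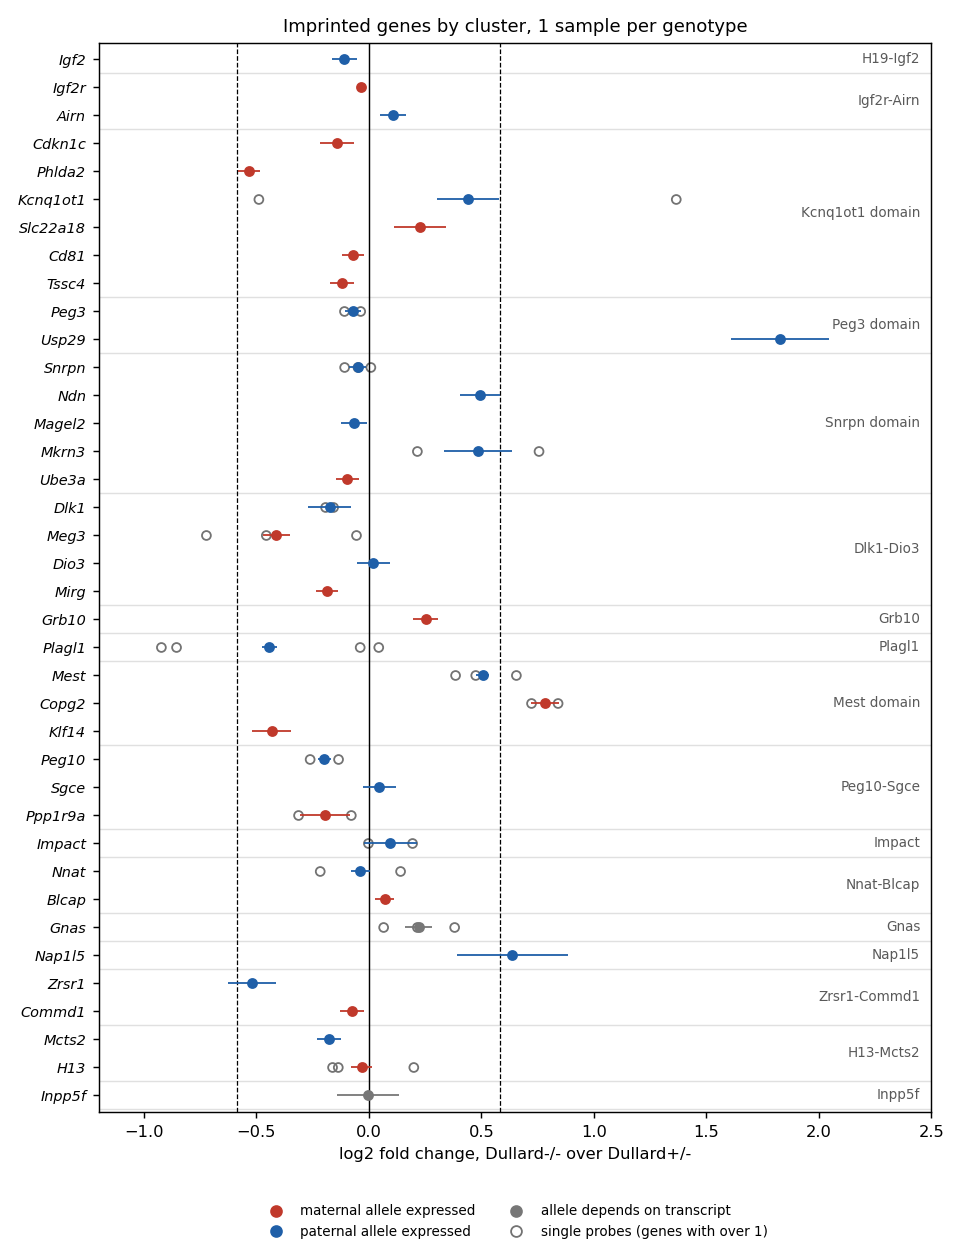
The horizontal axis gives the log2 fold change between the embryos (homozygous over heterozygous) and the vertical axis the 38 imprinted genes measured in both, ordered by cluster, with filled points for genes, bars for the error from replicate spots, open points for single probes, and dashed lines at 1.5-fold. *Usp29*, *Copg2* and *Nap1l5* lie past the upper line, and the probes of *Kcnq1ot1*, *Plagl1* and *Meg3* are spread.

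By expressed copy, 12 of the 16 measured maternally expressed genes were below 0 and 4 above (*Copg2*, *Grb10*, *Slc22a18* and *Blcap*), with a median of -0.08, while 52.0% of all genes lay above 0. The 20 paternally expressed genes split evenly, 10 above and 10 below 0, with a median of -0.01. It became 0.03 with the arrays scaled to their medians and 0.01 with normexp background correction. Without the filter on dim probes it was -0.069, over more genes. Of the 10 above, *Kcnq1ot1* is there by the mean of opposed probes (-0.49 and 1.37), and *Nap1l5* was at -0.30 without that filter. Many of these values lie close to 0. Scaling to the medians and leaving out scaling move all genes by a constant each, and with these, quantile normalization or loess 9 genes near 0 changed side, *Igf2r*, *Dio3*, *Sgce*, *Impact*, *Nnat*, *Blcap*, *Airn*, *H13* and *Inpp5f*. For 8 measured maternally expressed genes whose imprinting is not limited to some tissues the median was -0.16, with 6 below 0. The difference between maternally and paternally expressed genes was not tested.

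**Figure D4:**
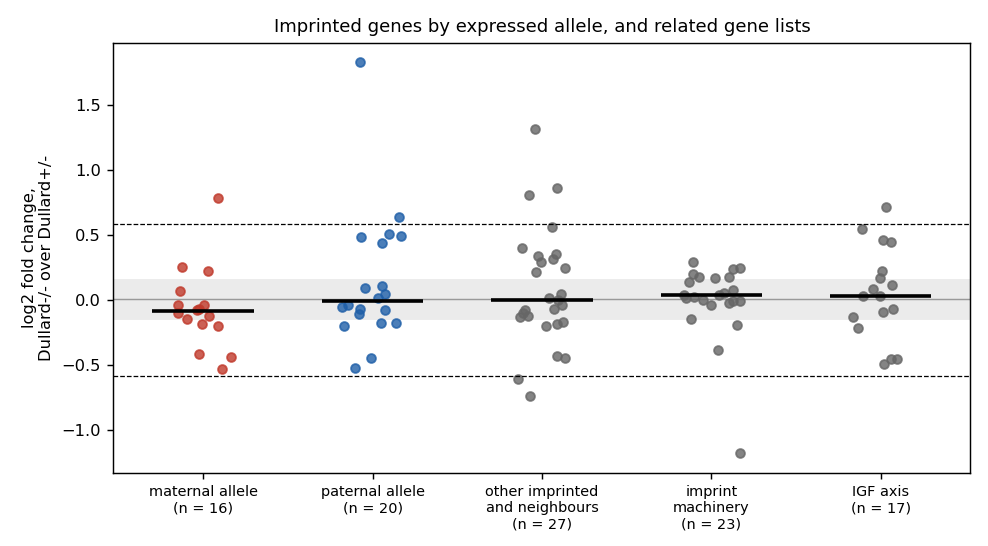
The vertical axis gives the log2 fold change between the embryos (homozygous over heterozygous) for imprinted genes by expressed copy and for related gene lists (horizontal axis), 1 point per gene, 1 sample per genotype, with thick lines at the medians, the grey band for the middle 50% of all genes and dashed lines at 1.5-fold. The medians lie at -0.08 (maternal), -0.01 (paternal), 0.00 (other imprinted genes and neighbours), 0.04 (imprint machinery) and 0.04 (growth factor axis).

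The machinery that sets and keeps imprints was mostly level. Of 24 genes for DNA methyltransferases, their cofactors, zinc finger proteins that protect imprints and chromatin modifiers, 23 were measured, with a median of 0.04 and 15 above and 8 below 0. None was past 1.5-fold higher and 1 was past it lower, beside 3.92% and 3.37% of all genes. *Dppa3*, whose protein protects maternal methylation in the zygote and which also marks primordial germ cells, was that gene, at 26.5 and 10.9 (-1.17 ± 0.24). *Zfp445*, for a zinc finger protein that protects imprints, was at -0.38, *Dnmt3a*, a de novo methyltransferase gene, at 0.30, and *Trim28*, for the corepressor recruited by such zinc finger proteins, at 0.25. *Dnmt1*, the maintenance methyltransferase gene, was at 0.17, and *Zfp57*, a guardian of imprints, at 0.04.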

How the data were processed

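Per embryo, the authors deposited the scanner output of 1 array, in which Agilent Feature Extraction 10.10 had subtracted the background from each spot intensity, and a processed table of intensity values. That table is linear and equals the scanner signals times 4.91 (*Dullard*+/-) and 5.20 (*Dullard*-/-), with medians of 189 and 181. The sources used here do not say how these constants were set. The table served as an alternative. The labels give 100 ng of RNA as input, and the study's methods another amount and kit, so the strand of the labelled target is not settled.

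Signals were scaled to the 75th percentile over the 43020 spots of each array that are not controls, and log2 was taken. The 206 spots marked as outliers on either array were left out, and 0 were saturated. Well above background were 31242 spots (*Dullard*+/-) and 29310 (*Dullard*-/-). Replicate spots were averaged per probe, and the log2 fold changes of all probes of a gene that passed this mark on both arrays were averaged in turn. For a gene that passed it on 1 array the report gives a bound, taken against the dim array's lowest passing signal or the signal of the probe there if that was higher. Accessions without versions were matched to RefSeq symbols of GRCm38.p6, which named 30220 spots and left 12800 unnamed. The spot error pools the 40 replicated probes nearest in signal (266 in all), with an SD of 0.20 in the dimmest and 0.05 in the brightest group.

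The members and lists were chosen with earlier results of these data known. All 45 members are named, and of each pathway list up to 4 genes with the largest differences. *Begain*, *Asb4*, *Pon3*, *Dnmt1*, *Zfp57*, *Xist*, the Y-linked genes and the other single marker genes fall outside that rule and were chosen after values had been seen. The scaling to the 75th percentile and the averaging over probes and genes were first tested on simulated data. The background calls, bounds, alternatives and promoter counts were not part of that test. Alternatives were scaling to the median, no scaling, quantile normalization, loess (span 0.3), normexp (offset 50) on median signals, the brightest probe, no filter on dim probes, the mean of linear folds and the processed table. Promoter windows were matched by symbol. Python 3.11.15, numpy 2.4.6, pandas 2.3.3, statsmodels 0.14.6, matplotlib 3.10.9, R 4.3.3 and limma 3.58.1 were used.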

Additional observations from a re-analysis of the deposited data

How the results depend on the processing

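Across 9 alternatives the count of imprinted genes at least 1.5-fold higher was 3 in the reported values, 0 with normexp background correction and between 2 and 4 with the others, and the count at least 1.5-fold lower was 0 except for 4 without a filter on dim probes and 2 without scaling (*Phlda2* at -0.64 and *Zrsr1* at -0.63). Normexp adds an offset of 50 that pulls dim genes toward 0 by construction, and gave 94 and 33 of all genes past 1.5-fold, beside 579 and 498 in the reported values. Without scaling the median of all genes shifted by -0.11, the counts were 388 higher and 782 lower, and the medians were -0.16 over the imprinted genes, -0.20 over maternally and -0.12 over paternally expressed ones. With the arrays scaled to their medians the all-gene counts were 673 and 421, with quantile normalization 678 and 426, and with loess 697 and 417. Without the filter they were 1215 and 1736 over 20277 genes, the median over paternally expressed genes was -0.069, and *Nap1l5* turned to -0.30, since its second probe enters. *Usp29* was at least 1.5-fold higher in 8 of 9 alternatives, from 0.51 (normexp) to 1.90, and *Copg2* in 8 of 9, from 0.51 (normexp) to 0.82, while *Nap1l5* was in 6 of 9. *Mest* ranged from 0.39 to 0.66. With the brightest probe alone *Kcnq1ot1* was at -0.49, *Plagl1* at -0.04 and *Meg3* at -0.05. No paired analysis was possible because there is 1 sample per genotype. Dim probes limit the values of *Usp29*, *Nap1l5*, *Mkrn3* and *Kcnq1ot1*, with a replicate spot SD of 0.20 in the dimmest group of replicated probes.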

Other observations

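Other imprinted genes and neighbours of imprinted clusters, some of them imprinted in the placenta only, were listed apart from the 45. Of 35, 27 were measured in both embryos, with a median log2 fold change of 0.00, and 14 lay above and 13 below 0. Higher by 1.5-fold or more were 3, beside 3.92% of all genes: *Zdbf2*, a paternally expressed zinc finger gene (1.31 ± 0.18), *Gatm*, an enzyme gene of creatine synthesis (0.86 ± 0.25), and *Ano1*, a chloride channel gene (0.81 ± 0.21). Their signals were low in the *Dullard*+/- and *Dullard*-/- embryos, with *Zdbf2* at 25.1 and 51.7 summed over its probes, *Gatm* at 7.38 and 12.4, and *Ano1* at 19.6 and 31.7. Lower by 1.5-fold or more were 2, beside 3.37% of all genes: *Ascl2*, a maternally expressed transcription factor gene of the trophoblast (-0.74 ± 0.09), and *Begain*, next to *Dlk1* (-0.61 ± 0.17). *Asb4*, near *Peg10*, gave 0.56 ± 0.04, just inside 1.5-fold. *Pon3* was measured in the *Dullard*+/- embryo only, at 12.0 and 2.58.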
